A study of Homo sapiens with 12 samples.

Results

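Described here are 10 genes that set the pace of the G1 phase of the cell cycle, chosen by symbol: 6 cyclin-dependent kinase inhibitors, 2 D-type cyclins and the 2 kinases that D cyclins activate. Of these 10 genes, 8 were measured, out of 13407 genes in the first set of libraries and 11504 in the second. CDKN2A and CDKN2B were not analysed here. The study compared MCF-12A cells given TGFbeta1 with cells given the vehicle. MCF-12A is a human mammary epithelial line that is not tumorigenic. RNA was sequenced from 12 libraries, 6 per group. Replicates 1 to 3 of both groups form the first set, and replicates 4 to 6 the second. The labels state neither the dose nor the duration of TGFbeta1. Nothing in them says that replicates were separate cultures, so the p-values speak only of spread among these libraries, which may be technical.

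In G1, cyclins D1 and D3 bind CDK4 and CDK6, and the kinases then phosphorylate the retinoblastoma protein RB, which frees E2F transcription factors to switch on genes of DNA replication. The INK4 inhibitors bind CDK4 and CDK6 alone, whereas the CIP/KIP inhibitors p21, p27 and p57 bind complexes of cyclin and kinase. In epithelial cells TGFbeta is known for arresting cells in G1, classically through induction of p15 (CDKN2B) and p21 (CDKN1A) and repression of MYC.

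The CIP/KIP inhibitors share a cyclin-binding motif, arginine, any residue, leucine, phenylalanine, glycine, which lies within the inhibitory domain that they have in common. Its coding sequence is shown because the 3 genes can be compared there base by base. The stretches below are from GENCODE v29, 5′ to 3′, with the 5 codons of the motif in capitals.
CDKN1A: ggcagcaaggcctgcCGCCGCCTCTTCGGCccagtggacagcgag
CDKN1B: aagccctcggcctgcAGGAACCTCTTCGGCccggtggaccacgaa
CDKN1C: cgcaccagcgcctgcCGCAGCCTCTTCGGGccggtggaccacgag
CDKN1A and CDKN1C were equal at 36 of these 45 bases, CDKN1B and CDKN1C at 33, and CDKN1A and CDKN1B at 30.

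Expression is given in FPKM, fragments scaled to the length of each transcript and to the size of the library, summed over the transcripts of a gene. First-set libraries summed to 307852.2 to 318269.5 FPKM in controls and to less, 291801.6 to 293787.5 FPKM, with TGFbeta1. In the second set the sums were 338968.0 to 353706.5 FPKM in controls and 343461.2 to 358432.6 FPKM with TGFbeta1. The main fits did not rescale libraries, and results with an equal sum are given below. No counts were used, so depth is unknown. All 10 epithelial markers checked were listed for the first set and 9 of 10 for the second, where KRT19 was not listed. In the first set some other measures also moved with the group. Mitochondrial transcripts took 1.007% to 1.161% of the summed FPKM in controls and 0.297% to 0.339% with TGFbeta1. The second set was far higher, at 7.999% to 8.534% in controls and 8.511% to 9.024% with TGFbeta1. Of 9 fibroblast markers 3 were listed for the first set, while COL1A2, COL3A1, LUM, PDGFRA, PDGFRB and THY1 were not. The sum of these 3 was 8.26 to 8.59 FPKM in controls and 55 to 57.7 FPKM with TGFbeta1. In the second set 4 were listed, with sums of 36.1 to 39.8 FPKM in controls and 17.5 to 21.2 FPKM with TGFbeta1. The sum of the 5 listed of 9 leukocyte markers was 26.6 to 27.6 FPKM in first-set controls and 19.3 to 22.6 FPKM with TGFbeta1, with PTPRC, CD3E and ITGAM among those not listed. The part of the mitochondrial and marker differences in the results was not tested. In bulk RNA, fewer cells of a type and less RNA per cell cannot be told apart.

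In the first set CDK6 rose and CDKN1C, which encodes p57, fell with TGFbeta1, and the other 5 members tested did not pass. These 2 of 7 members stand beside 20.9% of all genes called at an adjusted p under 0.05 (limma, Benjamini-Hochberg over all genes), 9.00% higher and 11.9% lower. None of 8 members passed in the second set, beside 0.321% of all genes (0.170% higher and 0.151% lower), and 2 had an unadjusted p under 0.05. Groups did not overlap for CDKN1C, CDK4 and CDK6 in the first set, where 43.3% of genes had groups apart, and for CDKN1C in the second, where 19.3% did.

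**Figure D1:**
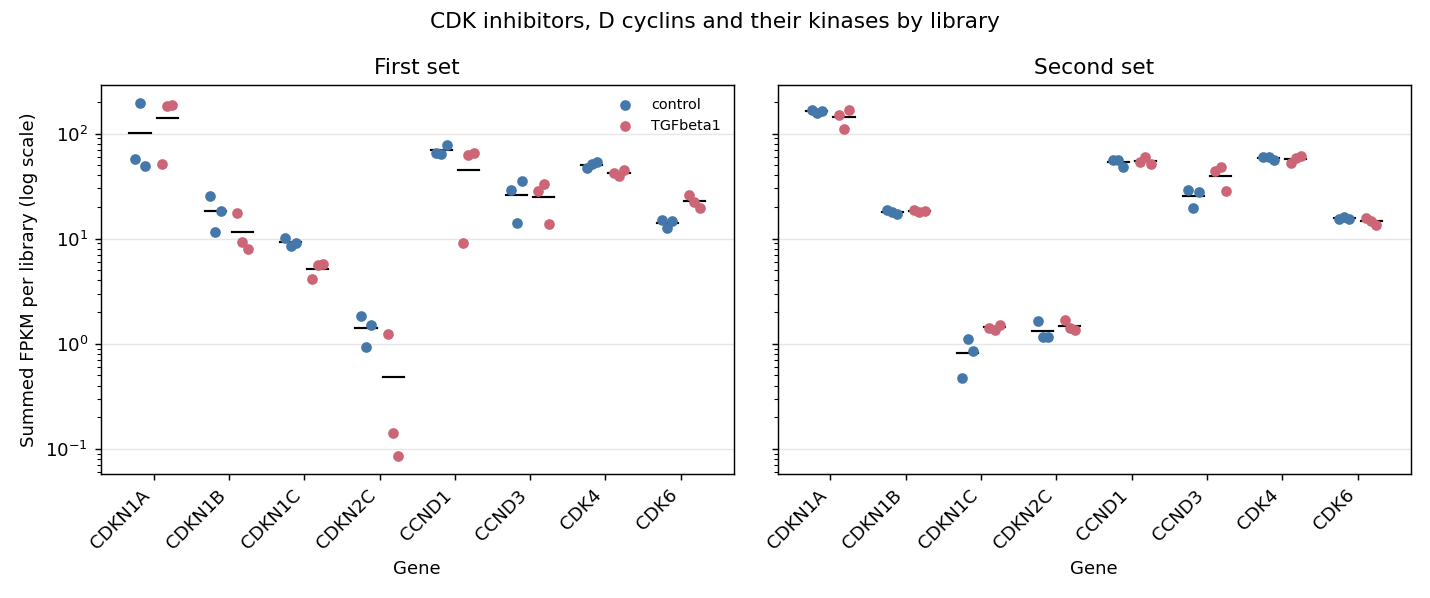
FPKM of the 8 measured members in each library, on a log axis, by set and group, with 3 libraries per group and lines at their means. CDKN1A, CDKN1B and CCND3 were scattered within both groups of the first set. CDKN2C spread widely there with TGFbeta1, and CCND1 was low in TGFbeta1 replicate 1 alone. CDK6 was higher with TGFbeta1 in all 3 libraries of the first set.

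Control levels, compared per length in FPKM, spanned from CDKN1A to CDKN2C in the first set. CDKN1A averaged 101 ± 83.2 FPKM (SD, n = 3), CCND1 69.3 ± 7.18 and CDK4 50.6 ± 3.31. CCND3 (26.1 ± 10.8), CDKN1B (18.5 ± 6.78) and CDK6 (14.1 ± 1.31) overlapped as neighbours, as did CDKN1A and CCND1. CDKN1C at 9.25 ± 0.827 FPKM and CDKN2C at 1.42 ± 0.463 FPKM were each below the gene before them in every control. Second-set controls ran in the order CDKN1A, CDK4, CCND1, CCND3, CDKN1B, CDK6, CDKN2C, CDKN1C, and only CDK4 and CCND1 overlapped. Of the 8 members, CDKN1C differed most in control level between the sets by fold, at 0.81 ± 0.315 FPKM in second-set controls. The tables were scaled and filtered separately, and 4 CDKN1C transcripts were listed in the first set against 1 in the second.

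CDKN1C lies on the minus strand of chromosome 11 (hg19, 2904443 to 2907111). It measured 10.1, 8.47 and 9.17 FPKM in control replicates 1 to 3 of the first set and 4.16, 5.66 and 5.76 FPKM with TGFbeta1. All TGFbeta1 libraries were below all controls. The log2 change was -0.74 ± 0.137 (SE), with an adjusted p of 0.0172 by limma, and the call was lost without control 1 (adjusted p 0.0588) and with transcripts listed in both tables (0.063). Most of the level came from CDKN1C-003, at 53.5% to 70.7% of the gene in controls, whose own log2 change of -0.71 did not pass (adjusted p 0.145). Second-set values were 0.474, 1.10 and 0.858 FPKM in controls and 1.41, 1.37 and 1.52 FPKM with TGFbeta1. There the TGFbeta1 libraries were the higher ones, with a log2 difference of 0.44 ± 0.151 that did not pass (p 0.0276, adjusted p 0.38 by limma). At this low level the difference depended on the pseudocount, and was 0.81 with a pseudocount of 0.1 (adjusted p 0.427). CDKN1C passed the second-set minimum of 1 FPKM only through its TGFbeta1 libraries (mean 1.43 FPKM, beside 0.81 FPKM in controls).

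CDKN1A, the p53-inducible inhibitor p21, lies on the plus strand of chromosome 6 (hg19, 36644237 to 36655116). Its first-set values were 56.9, 197 and 49.0 FPKM in controls and 50.9, 182 and 189 FPKM with TGFbeta1. One control was high and one TGFbeta1 library low, so that the groups overlapped. The log2 difference was 0.55 with a 95% interval of -1.28 to 2.38 (adjusted p 0.643 by limma), and ranged from 0.18 without control 3 to 1.18 without control 2. Second-set controls were tight at 166, 156 and 164 FPKM, and TGFbeta1 libraries measured 152, 111 and 167 FPKM, with a log2 difference of -0.20 (adjusted p 0.69) that was -0.027 without TGFbeta1 replicate 5. The 5 listed CDKN1A transcripts have the same coding sequence of 492 bases. CDKN1A-001, as named in the first table, held 89.7% to 94.8% of the gene in the first set and 18.2% to 27.9% in the second. There most of the rest lay in another pair of transcripts. In second-set controls this pair ranged from 25.6 to 104 FPKM and from 29.8 to 99.7 FPKM, while the control sums stayed within 156 to 166 FPKM.

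CDKN1B, encoding p27, lies on the plus strand of chromosome 12 (hg19, 12870058 to 12875305). It measured 25.2, 11.7 and 18.5 FPKM in first-set controls and 17.5, 9.20 and 7.93 FPKM with TGFbeta1. The ranges overlapped, and the log2 difference of -0.65 had a 95% interval of -1.58 to 0.29 (adjusted p 0.282 by limma). It ranged from -0.97 without TGFbeta1 replicate 1 to -0.40 without control 1. All 6 second-set libraries lay between 17.2 and 18.8 FPKM, and the log2 difference of 0.04 had an interval of -0.11 to 0.18 (adjusted p 0.858).

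Of the INK4 inhibitors among the 10 genes, CDKN2C, encoding p18, was measured (chromosome 1, plus strand, hg19, 51426417 to 51440305). It was near the lower limit of the data, at 1.84, 0.927 and 1.49 FPKM in first-set controls and 1.23, 0.141 and 0.0856 FPKM with TGFbeta1. Its mean was under the minimum of 1 FPKM, and with no filter its log2 difference of -0.77 did not pass (adjusted p 0.155 by limma). Second-set levels were 1.65, 1.16 and 1.16 FPKM in controls and 1.68, 1.41 and 1.35 FPKM with TGFbeta1, and these overlapped (log2 difference 0.10, adjusted p 0.811).

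CCND1, encoding cyclin D1 (chromosome 11, plus strand, hg19, 69455855 to 69469242), had 1 listed transcript. First-set controls measured 65.8, 64.5 and 77.6 FPKM and TGFbeta1 libraries 9.02, 62.6 and 64.6 FPKM. TGFbeta1 replicate 1 alone was far below the rest. The log2 difference of -1.01 (95% interval -2.89 to 0.86, adjusted p 0.398 by limma) became -0.12 without that library. CCND2, the other D cyclin and not one of the 10, was low in the same library (1.24 FPKM, against 10.4 and 10.5) and also in control 1 (2.30 FPKM, against 14.1 and 13.4). Second-set CCND1 was 47.6 to 56.4 FPKM in controls and 50.8 to 59.5 FPKM with TGFbeta1 (log2 difference 0.04, adjusted p 0.907).

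CCND3, encoding cyclin D3 (chromosome 6, minus strand, hg19, 41902671 to 42016706), measured 28.96, 14.19 and 35.16 FPKM in first-set controls and 28.40, 33.00 and 13.68 FPKM with TGFbeta1. The groups overlapped over nearly their whole range (log2 difference -0.05, adjusted p 0.947 by limma). Its sign turned under several settings, reaching 0.31 without TGFbeta1 replicate 3. Its second-set values were 28.87, 19.50 and 27.98 FPKM in controls and 43.74, 47.53 and 28.10 FPKM with TGFbeta1, a log2 difference of 0.61 ± 0.241 (p 0.0452, adjusted p 0.432). CCND3-003, which has a coding sequence of 660 bases where that of CCND3-001 has 876, was listed at 0, 10.3 and 0 FPKM in those controls and at 38.9, 37.5 and 17.0 FPKM with TGFbeta1. That difference did not pass across transcripts (adjusted p 0.561 by limma). In the first set CCND3-003 was at 0.264, 0.0699 and 0.394 FPKM in controls and at 0, 0 and 0 FPKM with TGFbeta1. Second-set control 4 had 21.2 FPKM listed for CCND3-002 instead, which was at most 0.63 FPKM in the other libraries of that set. The part of read assignment between these transcripts was not tested.

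**Figure D2:**
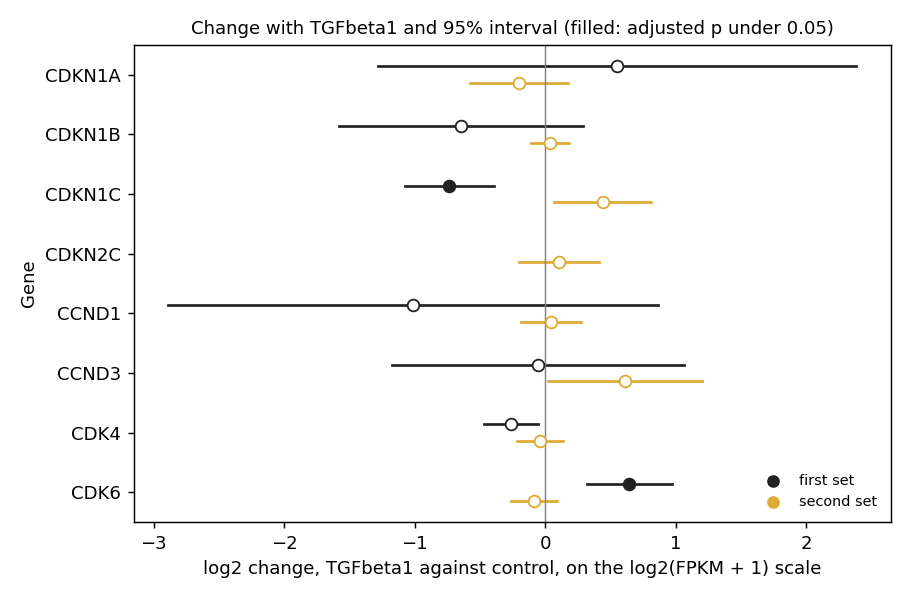
Log2 change of each member (TGFbeta1 minus control, on the log2(FPKM + 1) scale) in the first and second sets, with 95% intervals from limma and filled points for an adjusted p under 0.05 (CDKN2C not tested in the first set). Intervals of CDKN1A and CCND1 in the first set were the widest of the members, and CDKN1C and CDK6 were on opposite sides of 0 in the first set.

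CDK4 (chromosome 12, minus strand, hg19, 58141510 to 58146304) measured 47.1, 50.9 and 53.7 FPKM in first-set controls and 42.4, 39.1 and 44.8 FPKM with TGFbeta1. The TGFbeta1 libraries were all lower, by a log2 difference of -0.26 ± 0.0833 that did not pass (p 0.0223, adjusted p 0.0829 by limma). The second-set gene sum was 60.3, 59.9 and 56.1 FPKM in controls and 52.4, 58.5 and 60.8 FPKM with TGFbeta1 (log2 difference -0.04, adjusted p 0.879). Within that sum a transcript with a coding sequence of 333 bases, where the full-length CDK4-001 has 909, was listed at 0 in all 3 controls and at 20.5, 16.4 and 0 FPKM with TGFbeta1. That difference did not pass across transcripts (adjusted p 0.746 by limma). In the first set this transcript was at 6.31, 0 and 0 FPKM in controls and at 0, 2.16 and 0 FPKM with TGFbeta1.

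CDK6 (chromosome 7, minus strand, hg19, 92234235 to 92465908) measured 15.00, 12.57 and 14.63 FPKM in first-set controls and 26.28, 22.15 and 19.50 FPKM with TGFbeta1. Every TGFbeta1 library was above every control. The log2 change was 0.64 ± 0.132 (95% interval 0.32 to 0.97, adjusted p 0.0229 by limma). The call was lost without control 1 (adjusted p 0.054), control 2 (0.0676), TGFbeta1 replicate 1 (0.0531) or TGFbeta1 replicate 2 (0.069). Second-set CDK6 measured 15.5, 16.1 and 15.4 FPKM in controls and 15.7, 14.9 and 13.6 FPKM with TGFbeta1, which overlapped (log2 difference -0.09, 95% interval -0.26 to 0.09, adjusted p 0.71).

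The rise of CDK6 in the first set lay in 1 of its 2 transcripts, which have the same coding sequence of 978 bases but start 2614 bases apart in RefSeq. In GENCODE v29, 10222 bases follow the coding sequence in CDK6-001 and 3 in CDK6-002, so their 3′ ends differ as well. Whether the change arose at the start or at the 3′ end was not tested. The 250 bases before each start are shown because the 2 transcripts begin there. They are from RefSeq, GRCh38.p14, minus strand, 5′ to 3′, with matches to GGGCGG or its complement CCGCCC, a GC box, in capitals. The distal window is chr7:92836574-92836823, 21 bases from the GENCODE v29 start of CDK6-002, and the proximal window is chr7:92833960-92834209, 42 bases from that of CDK6-001.
CDK6 distal: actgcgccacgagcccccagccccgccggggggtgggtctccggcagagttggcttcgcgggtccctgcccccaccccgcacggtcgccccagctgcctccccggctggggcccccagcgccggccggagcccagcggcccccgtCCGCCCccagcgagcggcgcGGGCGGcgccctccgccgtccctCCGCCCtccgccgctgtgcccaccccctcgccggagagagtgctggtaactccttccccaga
CDK6 proximal: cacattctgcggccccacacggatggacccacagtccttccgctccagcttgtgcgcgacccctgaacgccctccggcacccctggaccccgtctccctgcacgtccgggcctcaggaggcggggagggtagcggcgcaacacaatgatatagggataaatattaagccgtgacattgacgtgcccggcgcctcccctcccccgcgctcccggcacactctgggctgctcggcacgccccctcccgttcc
The distal window was 80.0% G and C and held 3 GC boxes, and the proximal window was 67.6% G and C and held 0. A GC box was found in 42.6% of 35116 such windows, whose median was 58.0% G and C. CAGAC (complement GTCTG, a SMAD box), in 38.0% of windows, CACGTG (an E box, its own complement), in 6.34%, and TATAAA (complement TTTATA), in 10.7%, matched neither CDK6 window. Both strands were searched, and no match says only that these letters are not in the window.

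CDK6-001 measured 1.26, 0.0948 and 0.0258 FPKM in first-set controls and 18.5, 11.6 and 6.80 FPKM with TGFbeta1. It rose by 3.19 ± 0.458 on the log2 scale (adjusted p 0.0198 by limma across transcripts) and was the 1 member transcript called of 19 tested, beside 5.54% of all transcripts. CDK6-002 measured 13.7, 12.5 and 14.6 FPKM in controls and 7.78, 10.6 and 12.7 FPKM with TGFbeta1, and did not pass (log2 difference -0.38, adjusted p 0.329). CDK6-001 thus made up 0.177% to 8.38% of the gene in controls and 34.9% to 70.4% with TGFbeta1. For the second set, where 0 of 21 tested member transcripts passed (2 at an unadjusted p under 0.05 by limma) beside 0.221% of all transcripts, its share was 86.8% to 92.5% in controls and 85.9% to 91.1% with TGFbeta1.

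FPKM divides by length, and CDK6-001 is 11612 bases long in GENCODE v29 against 1465 for CDK6-002. Multiplied back by length, as FPKM times kilobases summed over both transcripts, CDK6 reached 34.7, 19.4 and 21.7 in first-set controls and 226, 150 and 97.6 with TGFbeta1. This quantity was chosen after its parts had been seen. It was 158 to 173 in second-set controls and 145 to 159 with TGFbeta1. The part of read assignment between the 2 transcripts in the change was not tested.

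**Figure D3:**
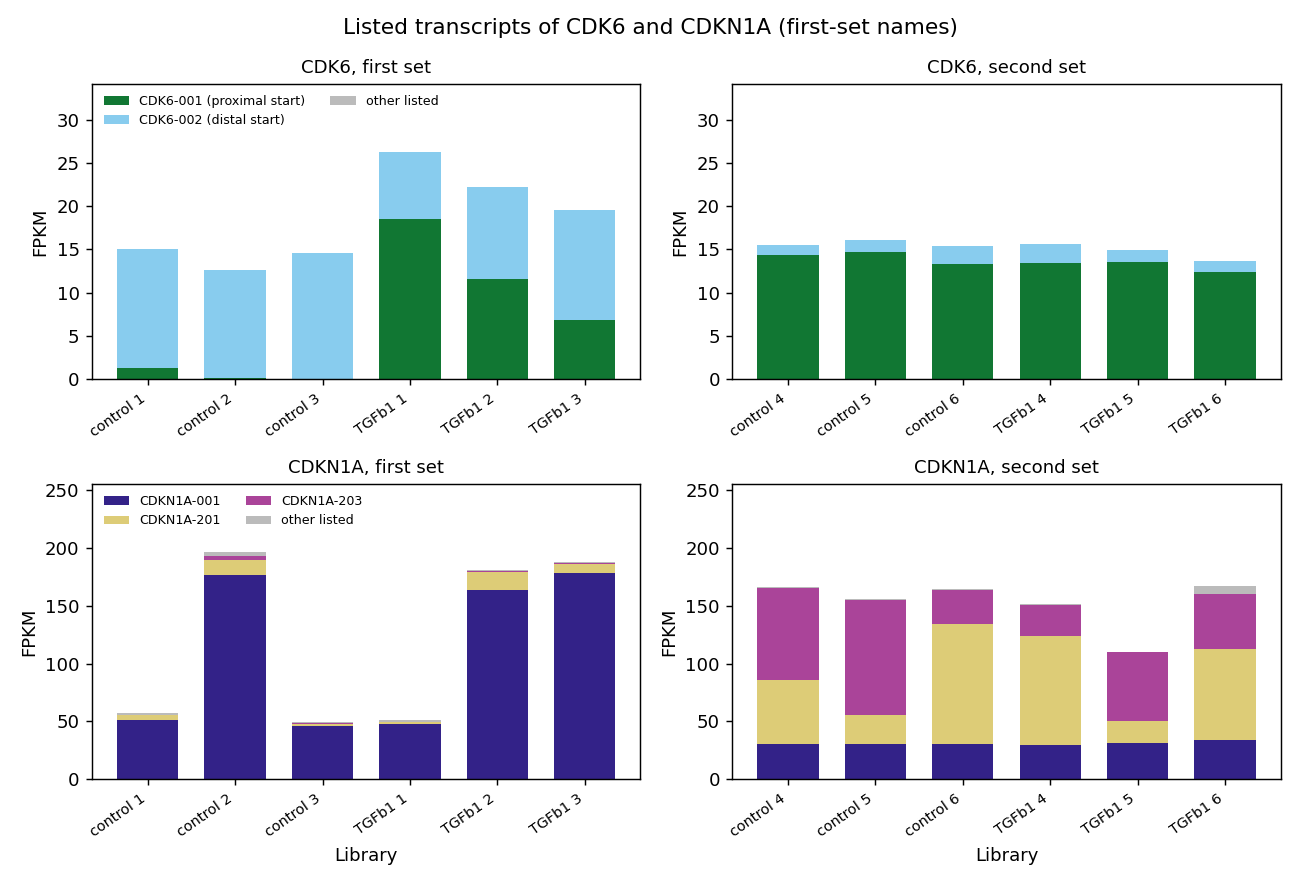
Stacked bars of the FPKM of each listed CDK6 and CDKN1A transcript in each library, with names as in the first table. CDK6-001 was at most 1.26 FPKM in first-set controls and between 6.80 and 18.5 FPKM with TGFbeta1, and was the main CDK6 transcript in every library of the second set.

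Because CDK4 and CDK6 bind the same cyclins, their proportion was taken per library. CDK4 made up 75.8%, 80.2% and 78.6% of CDK4 plus CDK6 in first-set controls and 61.7%, 63.8% and 69.7% with TGFbeta1. The means were 78.2% ± 2.2 and 65.1% ± 4.12 (SD, n = 3), and the exact two-sided permutation p of 0.1 is the smallest that 3 against 3 can give. The sum of both kinases was 64.6 ± 3.26 FPKM in controls and 64.7 ± 3.72 FPKM with TGFbeta1. Both the share and this sum depend on how CDK6 reads were split between transcripts of unlike length, as given above. Second-set shares were 79.0% ± 0.575 and 79.5% ± 2.38 (exact permutation p 0.7). CCND1 made up 66.3% ± 4.24 of the D cyclins in first-set controls and 51.7% ± 25.5 with TGFbeta1, where replicate 1 stood at 23.3% (exact permutation p 0.6). Its second-set shares were 55.8% ± 3.93 and 48.8% ± 3.53 (exact permutation p 0.2).

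**Figure D4:**
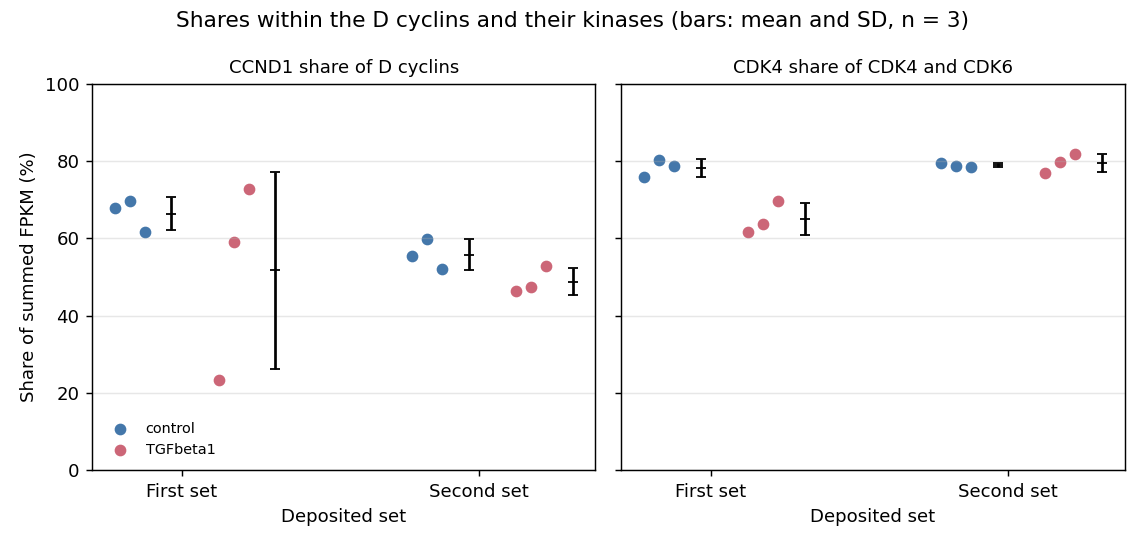
Percent of CDK4 in CDK4 plus CDK6, and of CCND1 in CCND1, CCND2 and CCND3 together, in each library by set and group (points), with the mean and SD (bars, n = 3). The CDK4 share was lower with TGFbeta1 in all 3 first-set libraries, and the groups overlapped in the second set.

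The difference between the sets was tested as an interaction, second minus first. CDKN1C differed by 1.17 ± 0.209 on the log2 scale (adjusted p 0.00426 by limma) and CDK6 by -0.73 ± 0.158 (adjusted p 0.0124), 2 of 7 members beside 13.4% of all genes (7.58% higher and 5.86% lower). The other 5 did not pass, with adjusted p from 0.266 for CDK4 to 0.611 for CDKN1A. CDKN1C entered this fit only through its second-set TGFbeta1 libraries, since its second-set controls averaged under the minimum of 1 FPKM. Over both sets together, 0 of 7 members passed, beside 0.360% of all genes (0.230% higher and 0.130% lower), and 0 had an unadjusted p under 0.05. The set and everything that differed between the sets cannot be told apart. In the authors' deposited table for the second set, 0 of 28 member transcripts had a q-value under 0.05, and the lowest q-value was 0.7122.

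Among the 6 lists of genes around the members, those of DNA replication that E2F factors switch on had the most calls. In the first set 14 of 35 of these E2F targets fell and 0 rose, beside 11.9% of all genes lower and 9.00% higher, with a median log2 difference of -0.31 beside -0.05 over all genes tested. MCM5, a subunit of the replicative helicase, fell from 22.5 ± 1.49 to 13.9 ± 0.885 FPKM (log2 -0.66, adjusted p 0.00462 by limma), and PRIM1, the catalytic subunit of primase, from 25.3 ± 0.669 to 17.8 ± 0.54 FPKM (log2 -0.48, adjusted p 0.0052). POLA1, the catalytic subunit of DNA polymerase alpha, fell from 7.24 ± 0.359 to 4.77 ± 0.137 FPKM (adjusted p 0.00751). The number that fell was 8 with libraries scaled to an equal sum. It was 7, 6 and 12 without TGFbeta1 replicates 1, 2 and 3, and 8, 7 and 8 without controls 1, 2 and 3. Of the 35, 0 passed in the second set (2 at an unadjusted p under 0.05), where the median was 0.03 and RFC4 and CDC6 were among those with the smallest p (adjusted p 0.368 and 0.478).

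Of 12 other cyclins, cyclin-dependent kinases, inhibitors and regulators of these kinases tested, 0 passed in either set by limma. Over all genes 20.9% (first set) and 0.321% (second set) passed. Of the 12, 1 (first set) and 3 (second set) had an unadjusted p under 0.05. Those with the smallest p were CCNH, CDC25A and MNAT1 in the first set (log2 differences -0.32, -0.33 and -0.12) and CDKN3, CDK2 and CCNA2 in the second (0.56, 0.43 and 0.21, adjusted p 0.385, 0.385 and 0.433). RBL1, the pocket protein p107, was the 1 of 17 RB and E2F genes to fall in the first set, beside 11.9% of all genes. It passed at an adjusted p of 0.0489 and missed the threshold in 12 of 16 alternatives. LIN9 and TFDP2 came next there, at adjusted p of 0.0744 and 0.0778. LIN9, E2F1 and LIN52 had the smallest p in the second set, with adjusted p of 0.426, 0.432 and 0.478.

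Of 31 tested regulators of the inhibitor and D cyclin genes, 2 rose (ETS1 and RUNX1) and 6 fell (EZH2, ID1, ID3, KLF4, MXD1 and MYC) in the first set, beside 9.00% of all genes higher and 11.9% lower. MYC passed narrowly, at a log2 change of -0.81 ± 0.216 (adjusted p 0.0496 by limma). Its second-set log2 difference was -0.06 ± 1.31 (adjusted p 0.991). With an equal sum 4 regulators rose and 4 fell. The number that fell was 3 without TGFbeta1 replicate 1 or 2, 4 without TGFbeta1 replicate 3, control 1 or control 2, and 6 without control 3. ID1, an inhibitor of helix-loop-helix factors, fell from 139 ± 6.11 to 77.2 ± 6.06 FPKM (log2 -0.84, adjusted p 0.00171 by limma), and in the second set was 136 ± 6.14 in controls and 179 ± 5.49 FPKM with TGFbeta1 (adjusted p 0.0849). EZH2, the methyltransferase of Polycomb complex PRC2, fell from 19.4 ± 0.763 to 13.2 ± 0.318 FPKM, and ID3 from 81.8 ± 0.538 to 57.8 ± 1.16 FPKM. Their log2 differences in the second set were 0.23 for EZH2 and 0.16 for ID3 (adjusted p 0.483 and 0.686 by limma). ETS2 and FOXO1 were next to ID1 in p in the second set (adjusted p 0.108 and 0.34).

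Of 19 genes that turn over p27 and the D and E cyclins, CUL4B and SKP1 rose and CKS1B and COPS5 fell, a share near the 20.9% called over all genes. The number that fell was 0 without control 1, without any 1 TGFbeta1 library and with an equal sum. CUL4B, a ubiquitin ligase scaffold, went from 13.5 ± 0.756 to 26.0 ± 3.04 FPKM (log2 0.90, adjusted p 0.00374), and in the second set was 22.5 ± 0.874 and 17.2 ± 0.289 FPKM (adjusted p 0.109). SKP1, of the SCF ubiquitin ligase, rose from 35.9 ± 2.33 to 78.3 ± 18 FPKM (adjusted p 0.0131), a call lost with transcripts listed in both tables (adjusted p 0.259). CKS1B, a cofactor of p27 ubiquitination, fell from 174 ± 6.62 to 147 ± 2.16 FPKM (adjusted p 0.0287), and did not pass in 10 of 16 alternatives, with adjusted p up to 0.157. For SKP1 and CKS1B the second-set log2 differences had the other sign, at -0.92 and 0.35 (adjusted p 0.431 and 0.376 by limma). CKS2 had an adjusted p of 0.309 in the second set.

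Of 30 p53 targets, the class to which CDKN1A belongs, 2 rose and 6 fell in the first set, beside 9.00% and 11.9% of all genes. Among those that fell was PLK2, a polo-like kinase, from 51.4 ± 8.99 to 21.7 ± 3.49 FPKM (adjusted p 0.0072). The number that fell was 2, 1 and 1 without TGFbeta1 replicates 1, 2 and 3, and 2, 3 and 8 without controls 1, 2 and 3. SESN2, a stress-induced sestrin, fell from 17.2 ± 2.69 to 9.71 ± 1.17 FPKM (adjusted p 0.019), and did not pass without control 1, control 2, TGFbeta1 replicate 2 or TGFbeta1 replicate 3 (adjusted p 0.0552 to 0.0633). TNFRSF10B, a TRAIL death receptor, rose from 22.2 ± 1.76 to 31.4 ± 0.995 FPKM (adjusted p 0.0113). For PLK2, SESN2 and TNFRSF10B the second-set log2 differences were 0.44, -0.07 and 0.36 (adjusted p 0.439, 0.837 and 0.574 by limma). ZMAT3, GDF15 and SESN1 had the smallest p in the second set (adjusted p 0.165, 0.214 and 0.303). None of the 6 lists had a call in the second set, where 22 of their genes had an unadjusted p under 0.05 by limma.

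**Figure D5:**
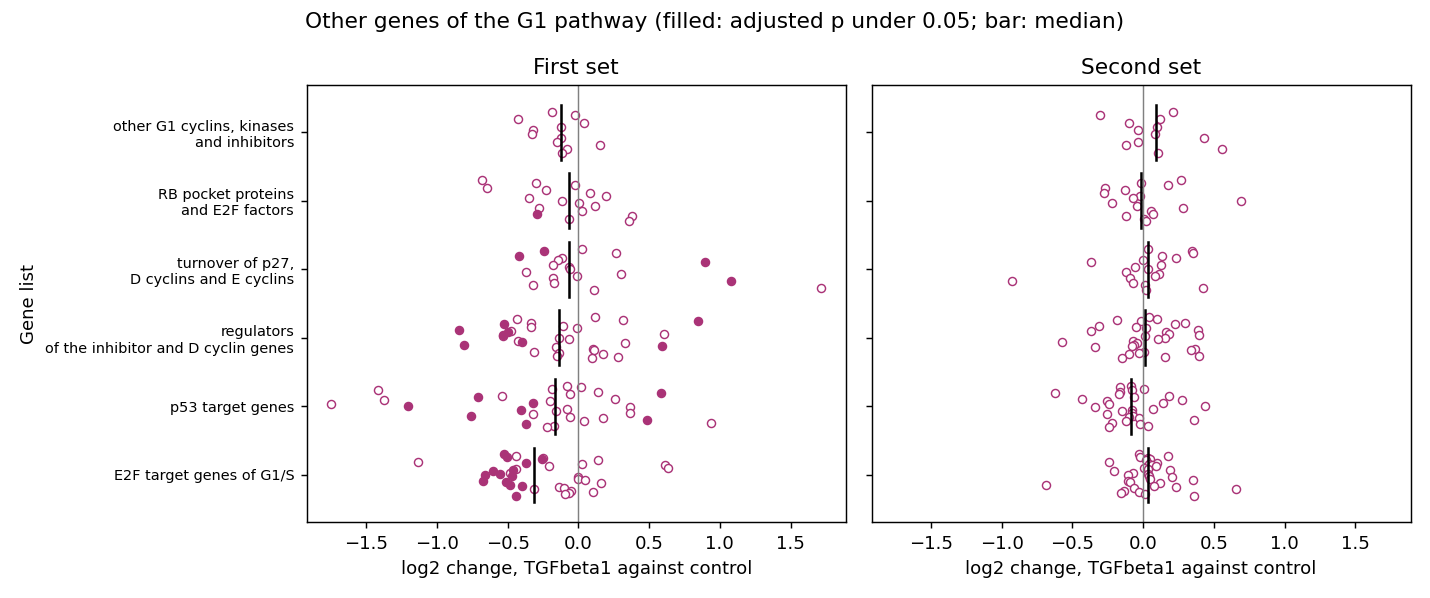
Log2 change (TGFbeta1 minus control) of the tested genes of each of the 6 lists, by set, with 1 point per gene, filled at an adjusted p under 0.05, and a bar at the median. The median of the E2F targets was -0.31 (first set) and 0.03 (second set).

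The genes whose pattern over the 12 libraries was most like that of CDKN1C were SDCBP2, MBP and COASY, with root mean square differences of 0.141, 0.141 and 0.146 in log2(FPKM + 1) centred within each set, beside a median of 0.394 over 10003 genes. Those most like CDK6 were FAM177A1, SLC26A2 and SERPINB5, at 0.0711, 0.0977 and 0.102 beside a median of 0.356.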

How the data were processed

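RNA of MCF-12A cells was sequenced. Reads were handled with HISAT2 2.0.4 and StringTie 1.2.3, with cutadapt and FastQC also named and hg19 as the build, per the submitters' processing notes. Strandedness, settings and the release of the annotation: not given in the sources used here. In 2 tables the authors deposited FPKM per transcript. The first table's headers name no unit, so its FPKM is inferred from its values. In the second, the deposited means of a group matched log2(FPKM + 1) averaged over its libraries within 5.0e-09, and the authors also deposited a log2 fold change, a linear fold change (a ratio), and a p-value and q-value per transcript. Transcripts were listed down to a mean of 0.025 FPKM in the first table and 0.25 in the second, so changes were taken within a set.

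Transcripts were summed per symbol, with 199 symbols of the first table renamed through shared transcript identifiers. Genes with a mean of at least 1 FPKM were tested on log2(FPKM + 1) by limma 3.58.1 (R 4.3.3), with a trend, two-sided, and Benjamini-Hochberg adjustment over all genes, and called at an adjusted p under 0.05. This scale understates the change of low genes. StringTie divides reads between overlapping transcripts, so transcript values are less certain than sums. The interaction and both-set fits used a set term. The method was checked on simulated data. Tables were made with Python 3.11.15, pandas 2.3.3 and numpy 2.4.6, sequences read with biopython 1.88 and plots drawn with matplotlib 3.10.9. RefSeq promoters matched 8 of 10 members by symbol.

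Members and lists were chosen with earlier results of these data known. Named are all members, the 3 genes of smallest p per list and set, and the 3 genes most like each called member, except that some are not reported here. Other list genes that passed were named after their values were seen. Alternatives were other pseudocounts, filters and scalings, a fit without the trend or with robust variances, transcripts listed in both tables, a replicate block, and leaving out each library. Same-numbered libraries were not treated as pairs in the main fits (closing section).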

Additional observations from a re-analysis of the deposited data

Results flagged for a closer look

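The effect of TGFbeta1 differed between the sets for CDKN1C, by 1.17 on the log2 scale (second minus first set), by the interaction term in limma (adjusted p 0.00426). Its log2 changes were -0.74 (first set) and 0.44 (second set). The effect also differed for CDK6, by -0.73 (adjusted p 0.0124), with log2 changes of 0.64 and -0.09. Both differences kept their side of the threshold in every alternative in which they were tested, with adjusted p from 0.00377 to 0.0317 for CDKN1C and from 0.00613 to 0.0345 for CDK6. CDKN1C was not tested at a minimum of 5 FPKM. In the second set it passed the minimum of 1 FPKM only through its TGFbeta1 libraries (mean 1.43 FPKM, beside 0.81 FPKM in controls).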

How the results depend on the processing

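Of 7 members tested in the first set, 2 were called. The number was 1 with transcripts listed in both tables and 0 to 2 with 1 library left out, being 0 without control 1. No count changed in the second set or over both sets. For the interaction it was 1 at a minimum of 5 FPKM, where CDKN1C is not tested. The first-set difference of CCND3 reversed to 0.031 with an equal sum, 0.016 with quantile normalisation, 0.31 without TGFbeta1 replicate 3, 0.063 without control 1 and 0.20 without control 3 (range -0.43 to 0.31 with 1 library left out). Second-set CDK4 reversed to 0.022 without TGFbeta1 replicate 4 (range -0.084 to 0.022), and CCND1 there to -0.019 without TGFbeta1 replicate 5 and -0.035 without control 6 (range -0.035 to 0.093). CDKN1A over both sets reversed to -0.010 without TGFbeta1 replicate 3 and -0.030 without control 3 (range -0.030 to 0.41). The cause was not tested. Of the calls in the first set over all genes, 941 were higher and 1245 lower, against 1164 and 855 with an equal sum.

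Same-numbered libraries correlated at 0.007 to 0.046 in their deviations from group means, and libraries of other numbers at -0.053 to 0.014. Only control 3 and TGFbeta1 replicate 3 correlated better with another number (0.009 against 0.007). The main fits did not use pairing, and these small values cannot tell whether same-numbered libraries were paired. With a replicate block 0 members were called in the first set (CDKN1C adjusted p 0.0728, CDK6 0.054). The E2F targets that fell went from 14 to 5, the regulators from 6 to 3 and the p53 targets from 6 to 3, and SKP1 did not pass (adjusted p 0.0518). RBL1, CKS1B and POLA1 did not pass either (0.128, 0.0854 and 0.0503). Calls over all genes went from 2186 to 1211 in the first set, from 34 to 0 in the second and from 36 to 0 over both.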
